A study of Rattus norvegicus with 12 samples.

Results

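The nuclear-encoded subunits of oxidative phosphorylation were followed across proliferative and differentiated neural stem cell (NSC) cultures from rat brain and spinal cord. They were taken as every probe set (short probes for the 3' end of 1 transcript) whose single gene symbol in the platform annotation began with Nduf, Uqcr or Atp5, with Cox followed by 4 to 8, or was Cyc1, Sdha, Sdhb, Sdhc or Sdhd. This gave 97 probe sets for 87 of the 14217 genes on the array, and each gene is represented by its probe set with the highest mean signal. The 87 genes held 34 of complex I, 4 of complex II, 8 of complex III and 6 complex I assembly factors, whose symbols begin with Ndufaf. A further 19 were of complex IV (Ndufa4, its relative Ndufa4l2 and the pseudogene Cox6c-ps1 included) and 16 of complex V (its inhibitor Atp5if1 included). Testing required a signal above the 40th percentile of the array on 3 or more of the 12 arrays, which 82 of the 87 genes met. The 82 lay above that level on at least 1 array of every group, and 68 of them had a mean log2 signal of 11 or more.

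RNA was measured on 12 Affymetrix Rat230_2 arrays, 3 for each of 4 groups of NSCs from Sprague Dawley rats 3 to 5 days after birth: brain proliferative (BP), brain differentiated (BD), spinal cord proliferative (CP) and spinal cord differentiated (CD). All groups share strain and age, and no genetic change or drug is named. An array is written by its group and replicate number, as in BP1. The samples are called cultures here; their growth conditions and the means of differentiation are not given in the sources used. The labels do not say whether replicate arrays stand for separate cultures or animals, so that each p-value reflects spread among arrays alone, possibly technical. Signals are log2 values scaled by the authors to the same trimmed mean on each array, and array medians ran from 6.87 to 7.22. Among genes used to mark NSCs, Sox2, a transcription factor of neural progenitors, lay between 11.53 and 13.29 on every array, and Nes, which encodes the filament protein nestin, between 7.78 and 11.39, lowest in CD. One array stood apart in dividing cells: the summed signal of 10 cell cycle genes was 14.55 in CP1 against 13.66 in CP2 and 13.79 in CP3.

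Oxidative phosphorylation is carried out in the inner mitochondrial membrane. Complex I takes electrons from NADH and complex II from succinate, both hand them to ubiquinone, complex III passes them to cytochrome c, and complex IV passes them to oxygen. Complexes I, III and IV pump protons, and complex V, the ATP synthase, uses the proton gradient to make ATP. Most subunits are encoded in the nucleus, and the few encoded in mitochondrial DNA are not among these genes. In the nervous system, neural progenitors are known to rely largely on glycolysis and neurons largely on oxidative phosphorylation.

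With differentiation about as large a share of the subunit transcripts fell in brain cultures as among all genes, few rose there, and many rose in spinal cord cultures. In brain 27 of the 82 genes fell (32.9%) and 3 rose (3.66%), with a median log2 change of -0.14, while over all 11218 tested genes 28.5% fell, 24.1% rose and the median was -0.06. In spinal cord 42 rose (51.2%) and 7 fell (8.54%), with a median of 0.26, beside 20.9% and 22.6% of all genes and a median of -0.04. In bulk RNA, fewer cells of a type and less RNA per cell cannot be told apart. The difference between both responses (spinal cord minus brain), tested as an interaction over all probe sets, was positive for 41 of the 82 genes and negative for 1, with a median of 0.36. Over all genes 23.7% had a positive and 21.2% a negative difference, with a median of 0.05. A call here means a Benjamini-Hochberg adjusted p under 0.05 from limma, adjusted over the 20834 probe sets tested.

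Before differentiation, the subunits were lower in spinal cord than in brain cultures: 39 of 82 genes were lower and 2 higher, with a median of -0.23, beside 22.8% lower and 21.2% higher among all genes. After differentiation 28 were higher in spinal cord and 3 lower, with a median of 0.17, beside 22.3% higher and 22.4% lower. The 5 comparisons share arrays, other than both differentiation responses, which share none. Leaving out 1 array moved the count higher in differentiated spinal cord to 14 without CD1, 16 without BD3, 17 without BD2 and 18 without CD2. The count lower in proliferative spinal cord was 25 without CP2. Without CP1, the array with the highest cell cycle signal, the cord response was 40 higher and 7 lower, and the difference of responses 41 and 1.

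Because most subunits are bright, they were also set beside the 1723 tested genes with a mean of 11 or more, a comparison chosen after seeing the data. These bright genes had a median change of -0.14 in brain, where 39.5% fell and 23.9% rose, and the 68 bright subunits had a median of -0.12, with 30.9% lower and 2.94% higher. The share of falls among bright subunits was thus below that among bright genes. In spinal cord the bright genes had a median of 0.00 with 25.6% higher, against a median of 0.29 and 40 of 68 higher (58.8%) for the bright subunits. For the difference of responses the medians were 0.18 for bright genes and 0.41 for bright subunits. Between proliferative cultures 37.8% of bright genes were lower in spinal cord and 17.8% higher, with a median of -0.16, against 34 of 68 lower, 2 of 68 higher and -0.23 for bright subunits. The subunit median lay near that of bright genes in brain and above it in spinal cord.

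**Figure D1:**
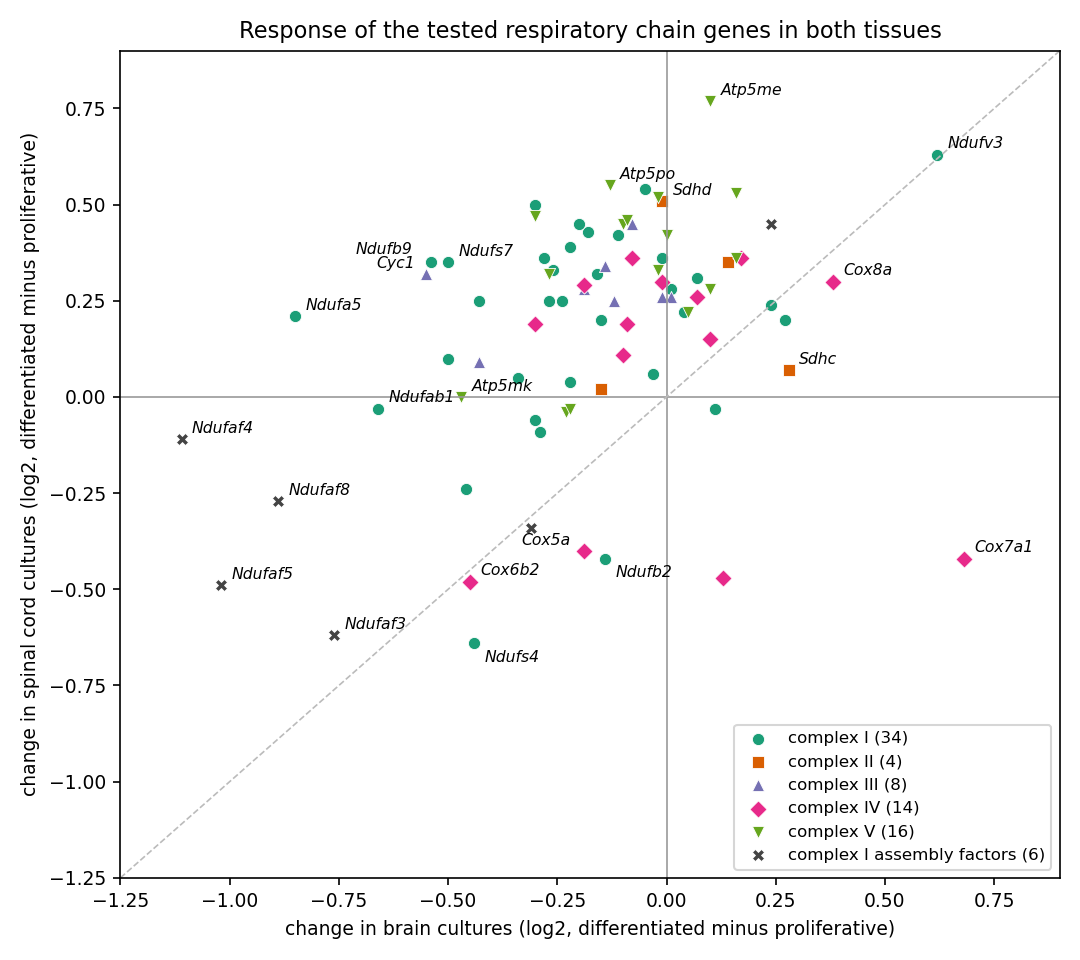
Log2 change with differentiation in brain cultures (horizontal axis) and in spinal cord cultures (vertical axis) for the 82 tested genes, marked by complex. The dashed line marks equal changes, and most points lie above it. For 71 of the 82 genes the change was higher in spinal cord than in brain, and 41 of these passed the test of the difference. Of all 11218 tested genes 5907 had a higher change in spinal cord, and 23.7% of all passed. Of the 1723 bright genes 1047 had, and 36.1% of the bright genes passed.

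The 82 genes were sorted by both calls. There were 11 genes (13.4%, against 4.41% of all tested genes) that fell in brain and rose in spinal cord: Atp5f1d, Atp5mg, Cyc1, Ndufa11, Ndufb5, Ndufb7, Ndufb9, Ndufc1, Ndufs3, Ndufs7 and Ndufv2. Another 29 (35.4%, against 9.19%) rose in spinal cord with no call in brain, and 12 (14.6%, against 15.8%) fell in brain with no call in spinal cord. Both tissues shared a rise for Ndufv3 and Cox8a, and a fall for Ndufa7, Ndufaf3, Ndufaf5 and Ndufaf7. No gene rose in brain and fell in spinal cord, by these calls or at unadjusted p-values under 0.05 in limma, where 5.46% of all genes did by the calls.

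Promoters are shown for 4 genes of different behaviour, chosen after their values were seen: Ndufaf4, with the largest fall in brain; Ndufa6, which fell in brain only by its calls; Atp5po, with the smallest adjusted p among rises in spinal cord; and Cox8a, which rose in both. NRF1, the ETS factor GABP and YY1 are known activators of many respiratory chain genes. The windows run from 200 bases before the annotated start site to 30 after it, 5' to 3' on the gene's strand, in RefSeq's GRCr8 assembly. Capitals mark GCATGCG (the core of the NRF1 motif), CCGGAAG (ETS) and AAGATGG (the core of the YY1 motif) wherever they lie, and also their reverse complements, since both strands were searched. Overlapping matches are joined, as in CGCATGCG, which holds the NRF1 core on both strands.
Ndufaf4, chr5:43401595-43401824, plus strand: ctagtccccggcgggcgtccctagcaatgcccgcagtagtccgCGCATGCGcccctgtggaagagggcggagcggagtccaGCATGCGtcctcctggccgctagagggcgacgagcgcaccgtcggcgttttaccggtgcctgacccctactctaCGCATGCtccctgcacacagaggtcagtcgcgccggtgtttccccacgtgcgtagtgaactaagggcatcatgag
Ndufa6, chr7:115750288-115750517, minus strand: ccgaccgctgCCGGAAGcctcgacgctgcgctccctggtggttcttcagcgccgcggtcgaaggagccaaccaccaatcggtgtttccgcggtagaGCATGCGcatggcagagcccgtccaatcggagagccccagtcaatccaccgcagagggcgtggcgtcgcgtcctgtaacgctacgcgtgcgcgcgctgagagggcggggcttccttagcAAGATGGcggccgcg
Atp5po, chr11:44657454-44657683, minus strand: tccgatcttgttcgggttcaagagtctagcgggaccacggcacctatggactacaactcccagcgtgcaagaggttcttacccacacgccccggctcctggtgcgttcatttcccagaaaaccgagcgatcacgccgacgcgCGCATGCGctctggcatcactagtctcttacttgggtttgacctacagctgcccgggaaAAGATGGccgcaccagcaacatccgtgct
Cox8a, chr1:213833594-213833823, minus strand: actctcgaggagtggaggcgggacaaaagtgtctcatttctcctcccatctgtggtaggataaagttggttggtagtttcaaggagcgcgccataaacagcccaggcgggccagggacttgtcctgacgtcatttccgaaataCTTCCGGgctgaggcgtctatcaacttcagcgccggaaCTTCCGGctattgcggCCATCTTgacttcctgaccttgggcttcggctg

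In these windows Ndufaf4 held 4 matches to the NRF1 core, 2 of them on opposite strands of 1 palindrome, Ndufa6 held all 3 motifs once each, Atp5po held an NRF1 palindrome and a YY1 core just past the start site, and Cox8a held 2 ETS matches and a YY1 core. Promoters of 300 bases (250 before to 50 after the start site) were at hand for 78 of the 87 genes. In them the YY1 core was found in 20 genes (25.6%), against 8.89% of the 9354 genes tested on the arrays that have a promoter and 7.77% of all 27457 in the table. The NRF1 core was found in 11 (14.1%, against 6.48% and 3.7%), and the ETS motif in 22 (28.2%, against 18.2% and 9.63%). CCAAT was found in 27 (34.6%, against 39.1% and 39.6%) and TATAAA in 8 (10.3%, against 7.18% and 15.3%). Of 38 genes that rose in spinal cord and have a promoter, 42.1% held the ETS motif, 13.2% the NRF1 core and 18.4% the YY1 core, and of 29 with no call there 20.7%, 17.2% and 37.9%. Of 25 that fell in brain 5 held the ETS motif, 6 (24.0%) the NRF1 core and 6 the YY1 core, and of 46 with no call there 34.8%, 10.9% and 23.9%. These shares were not tested. A match is a description of these letters and not a binding site.

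**Figure D2:**
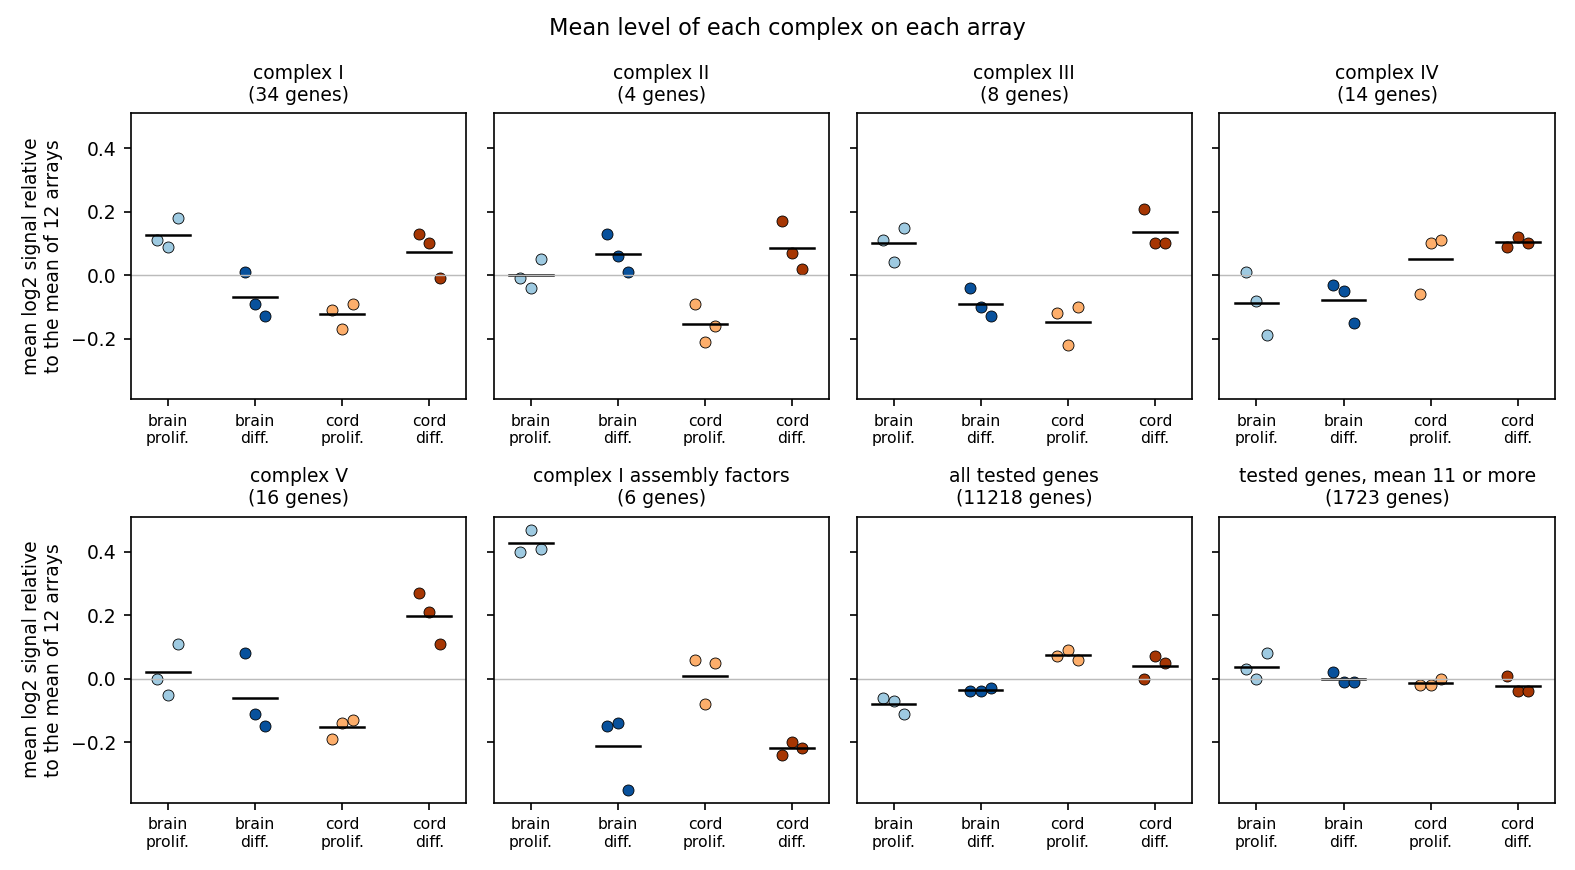
Mean log2 signal of the tested genes of each complex on each array, relative to each gene's mean over the 12 arrays; points are arrays and bars are group means. The last panels show all tested genes and the bright ones. Complex I ran from 0.09 to 0.18 in BP and from -0.17 to -0.09 in CP, and complex V from 0.11 to 0.27 in CD and from -0.19 to -0.13 in CP.

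Complex I gave 16 falls and 1 rise among its 34 subunits in brain, where 28.5% of all genes fell and 24.1% rose. In spinal cord complex I gave 17 rises and 3 falls, where 20.9% of all genes rose and 22.6% fell. Its core subunits include those with the flavin and the iron-sulfur clusters that take electrons from NADH to ubiquinone. Of the core subunits 6 were measured: Ndufs1, Ndufs3, Ndufs7, Ndufs8, Ndufv1 and Ndufv2. In spinal cord all 6 rose, by log2 0.25 to 0.54. All 6 were lower in proliferative spinal cord than in proliferative brain cultures, by log2 0.31 to 0.60 (22.8% of all genes were lower). All 6 had a positive difference of responses, from 0.36 to 0.85 (23.7% of all genes had a positive call). In brain 3 of them fell (Ndufs3, Ndufs7 and Ndufv2), and in differentiated cultures none of the 6 differed between tissues by the test (adjusted p = 0.0605 to 0.613 in limma, with 1 at an unadjusted p under 0.05). That 1 was Ndufs7, which passed without BD1, CP1 or CD3 (0.0212 to 0.0434).

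Ndufs7, which carries the last iron-sulfur cluster before ubiquinone, was at 11.79, 11.82 and 11.84 in BP, 11.49, 11.27 and 11.19 in BD, 11.35, 11.20 and 11.09 in CP, and 11.61, 11.64 and 11.44 in CD. The states did not overlap in either tissue, and they moved in opposite directions. The log2 change was -0.50 ± 0.10 (SE) in brain (limma adjusted p = 0.000944) and 0.35 ± 0.10 in spinal cord (adjusted p = 0.0128), with a difference of 0.85 ± 0.14 (adjusted p = 0.000306). Ndufv1, which binds NADH and the flavin, was at 11.41, 11.40 and 11.32 in BP, 11.44, 11.25 and 11.31 in BD, 11.12, 10.76 and 10.74 in CP, and 11.44, 11.45 and 11.35 in CD. Only its CP arrays were low: the rise in spinal cord was 0.54 ± 0.10 (limma adjusted p = 0.00106), and the brain change was -0.05 ± 0.10. Among these core calls, the rise of Ndufs7 was lost without CP3 or CD2 (adjusted p = 0.0536 to 0.0562) and that of Ndufs3 without CP3 (0.062). The rise of Ndufv2 was lost without CP2, CD1 or CD2 (0.0544 to 0.0646), and its fall in brain without BP2 or BD2 (0.05 to 0.0515). The fall of Ndufs3 in brain, 0.26 on the log2 scale, was lost without any array other than BD1 or the CP arrays (0.0536 to 0.172).

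The 28 accessory subunits of complex I measured here surround the core and are needed to build it. In brain 13 fell and 1 rose (46.4% and 3.57%, against 28.5% and 24.1% of all genes). In spinal cord 11 rose and 3 fell (39.3% and 10.7%, against 20.9% and 22.6%). Ndufa5, a subunit of the arm that reaches into the matrix, was at 11.36, 11.04 and 11.43 in BP, 10.45, 10.27 and 10.56 in BD, 10.64, 10.31 and 11.02 in CP, and 11.11, 10.81 and 10.68 in CD. The brain states lay apart and the spinal cord states overlapped. It fell 1.8-fold in brain (log2 -0.85 ± 0.17, limma adjusted p = 0.0011), the largest change among subunits of complex I there, while its change of 0.21 ± 0.17 in spinal cord was not called. Its difference of responses, 1.06 ± 0.24 (adjusted p = 0.00329), was the largest among the 42 that passed the test. Ndufab1, the acyl carrier protein of mitochondria, showed the same brain fall with no spinal cord change: it fell by 0.66 on the log2 scale in brain (limma adjusted p = 0.0001) and its spinal cord value was -0.03 ± 0.10. Ndufa6, one of the LYR-motif proteins that bind Ndufab1, fell by 0.50 in brain (limma adjusted p = 0.000588), with 0.10 ± 0.09 in spinal cord.

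Ndufb9, another LYR-motif protein, in the membrane arm, was at 13.19, 13.17 and 13.16 in BP, 12.75, 12.58 and 12.58 in BD, 12.86, 12.49 and 12.60 in CP, and 13.11, 13.03 and 12.86 in CD. In brain the states lay apart, and in spinal cord CP1 met CD3 at 12.86. Its changes were -0.54 ± 0.10 in brain (limma adjusted p = 0.000548) and 0.35 ± 0.10 in spinal cord (adjusted p = 0.0125), and the difference was 0.89 ± 0.14 (adjusted p = 0.000213). Ndufb7, on the side of the membrane arm that faces the intermembrane space, had a difference of 0.80 ± 0.13 (adjusted p = 0.000322), from a fall of 0.30 in brain and a rise of 0.50 in spinal cord. The rise of Ndufb9 was lost without CP2 or CD1 (adjusted p = 0.0569 to 0.0582), and the brain fall of Ndufb7 without BP3, BD2 or BD3 (0.0536 to 0.0894). Of the smaller opposite calls, the brain fall of Ndufa11 (log2 -0.28) was lost without BD1 or BD3 (0.05 to 0.0572) and that of Ndufb5 (-0.24) without BP2, BP3, BD2 or BD3 (0.0558 to 0.111). The cord rise of Ndufb5 (0.25) was lost without CP2, CD1 or CD2 (0.0642 to 0.0841), and that of Ndufc1 (0.25) without any array other than BP3, CP2 or CD3 (0.0514 to 0.155).

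A few accessory subunits went the other way. Ndufv3, a small subunit of the NADH-binding module, was at 10.35, 9.87 and 9.97 in BP, 10.85, 10.63 and 10.58 in BD, 10.08, 10.05 and 10.32 in CP, and 10.85, 10.80 and 10.67 in CD. It rose by about the same amount in both tissues, without overlap: 0.62 ± 0.13 in brain (limma adjusted p = 0.00162) and 0.63 ± 0.13 in spinal cord (adjusted p = 0.00189), with a difference of 0.00 (95% interval -0.40 to 0.41). A second probe set for Ndufv3 was not called in either tissue (0.02 and 0.35). Ndufb2, of the membrane arm, fell in spinal cord by 0.42 on the log2 scale (limma adjusted p = 0.000546), from 12.39, 12.50 and 12.55 in CP to 12.06, 12.07 and 12.05 in CD, and gave the 1 negative difference of responses (-0.28, adjusted p = 0.0476). That difference was lost without any array other than BP1 or CP1 (adjusted p = 0.0685 to 0.103). Ndufs4, mutated in Leigh syndrome, fell in spinal cord by 0.64 (adjusted p = 0.0273), a call lost without any array of the 2 cord groups other than CP1 (0.0531 to 0.108). Ndufa7 fell in brain by 0.46 and in spinal cord by 0.24. Its second probe set fell in brain by 0.51 but rose in spinal cord by 0.48 (adjusted p = 0.0133), so the probe sets disagree in direction there. The cord fall was lost without CP1, CP3, CD1, CD2 or CD3 (0.0695 to 0.0936).

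The complex I assembly factors, which help to build the complex and are not part of it, included the largest falls in brain. There 5 of 6 fell (28.5% of all genes did), with a median change of -0.83. In spinal cord 3 fell and 1 rose, with a median of -0.30, beside 22.6% lower and 20.9% higher among all genes. Ndufaf4, which acts early in building the ubiquinone-binding part, was at 11.15, 11.44 and 10.82 in BP, 9.90, 10.29 and 9.89 in BD, 10.70, 10.16 and 10.43 in CP, and 10.36, 10.23 and 10.39 in CD. Only its BP arrays were high. It fell 2.16-fold in brain (log2 -1.11 ± 0.17, limma adjusted p = 0.000121), its spinal cord value was -0.11 ± 0.17, and the difference was 1.0 ± 0.24 (adjusted p = 0.00428).

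Ndufaf5, which hydroxylates the core subunit Ndufs7, was at 10.08, 10.13 and 10.09 in BP, 9.08, 9.20 and 8.98 in BD, 9.46, 9.46 and 9.53 in CP, and 8.79, 9.21 and 8.98 in CD. It fell in both tissues without overlap, 2.02-fold in brain (limma adjusted p = 1.24e-05) and 1.40-fold in spinal cord (adjusted p = 0.00485). Its difference of 0.53 (adjusted p = 0.0218) was lost without BD3 or CD2 (0.0579 to 0.0591). Ndufaf3, the partner of Ndufaf4, fell by 0.76 on the log2 scale in brain (limma adjusted p = 8.89e-05) and by 0.62 in spinal cord (adjusted p = 0.000568), with a difference of 0.14 (95% interval -0.20 to 0.48). Ndufaf8, which stabilises Ndufaf5, fell by 0.89 in brain (adjusted p = 0.000105) and stood at -0.27 ± 0.13 in spinal cord, which passed without CP2 (0.0214). Its difference of 0.62 was lost without BD3 (0.0512). Ndufaf7, a methyltransferase for a core subunit, fell by 0.31 and 0.34, calls lost in brain without any 1 of the 6 brain arrays (0.0528 to 0.147) and in spinal cord without CP2, CP3, CD2 or CD3 (0.056 to 0.108). Its second probe set was not called. Ndufaf1, of the membrane arm, was the exception: it rose in spinal cord by 0.45 (adjusted p = 0.0269), a call lost without CP1, CP2, CD2 or CD3 (0.0625 to 0.124).

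**Figure D3:**
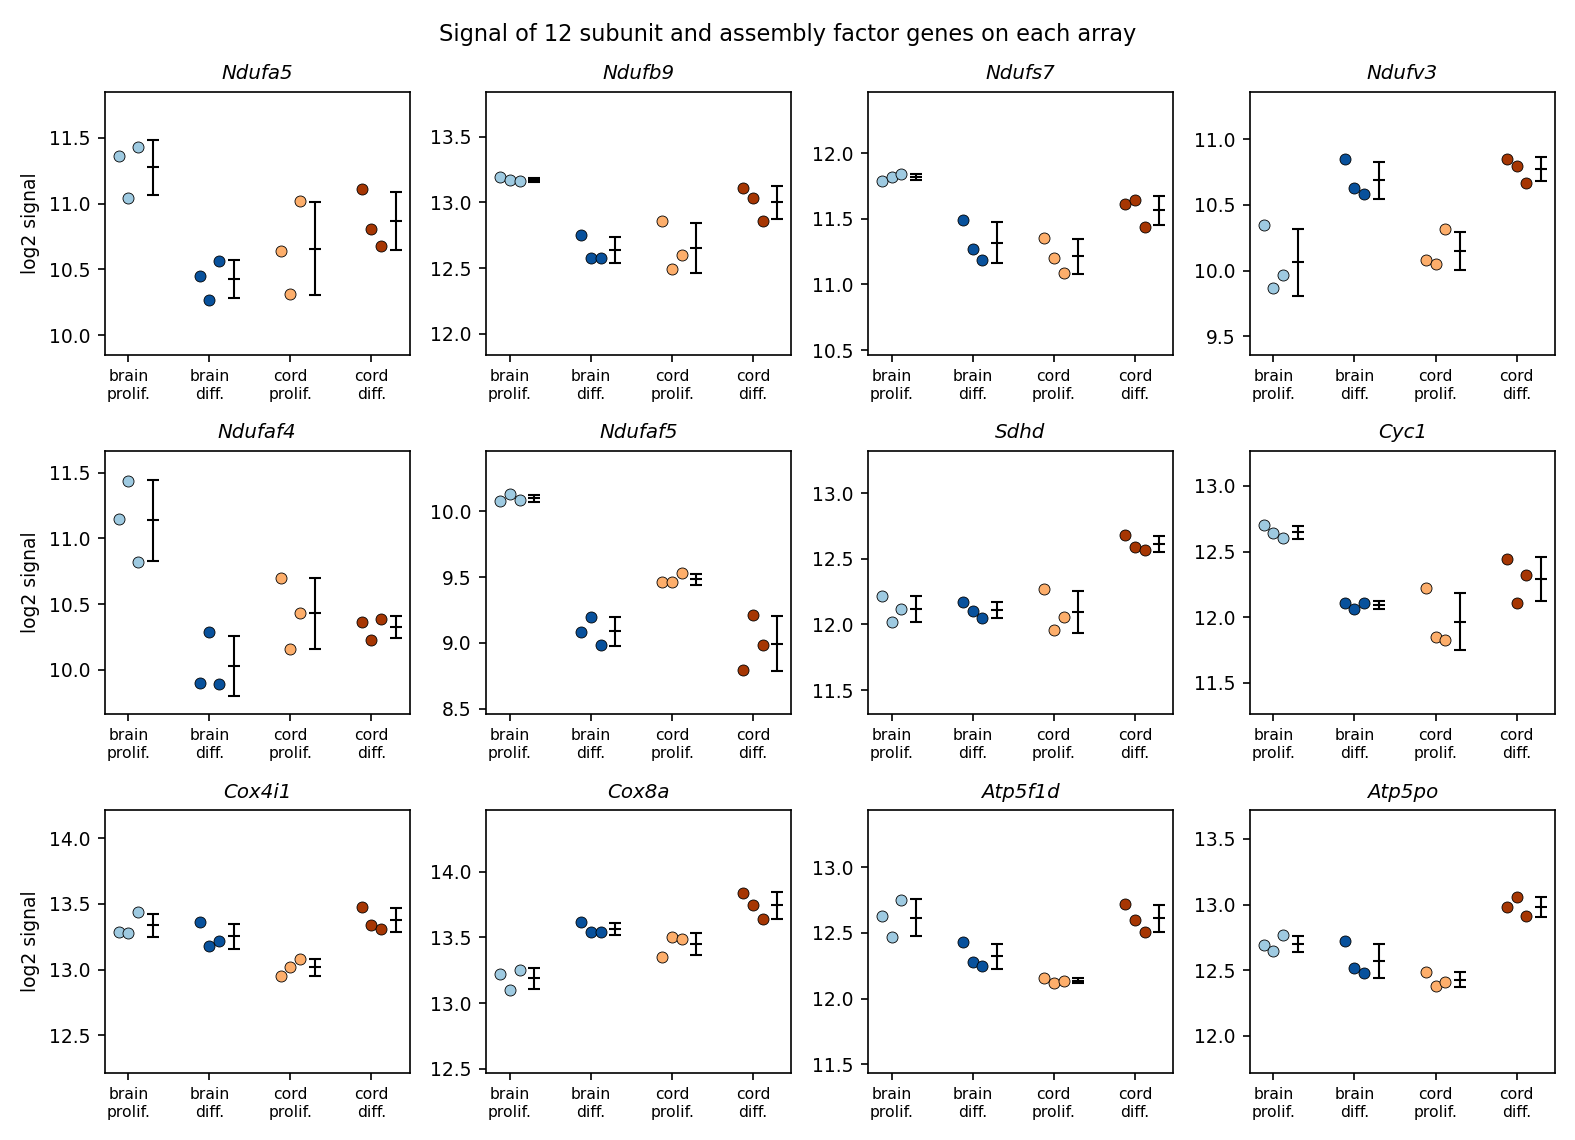
Log2 signal on each array for 12 of the genes described, with each group's mean and SD (n = 3) beside its points; every panel spans the same number of log2 units but not the same levels. BP arrays are the highest for Ndufaf4, Ndufaf5 and Cyc1, CD arrays the highest for Sdhd and Atp5po, and Ndufv3 and Cox8a are higher in differentiated than in proliferative arrays of both tissues.

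Complex II has 4 subunits, all encoded in the nucleus, and is also the succinate dehydrogenase of the citric acid cycle. In brain 1 of its 4 rose and 0 fell in limma, and 0 fell at an unadjusted p under 0.05, while 2 rose and 0 fell in spinal cord by either threshold. Its brain median was 0.07 on the deposited scale and -0.09 with array medians set equal. Sdhd, one of the membrane anchors, was at 12.22, 12.02 and 12.12 in BP, 12.17, 12.10 and 12.05 in BD, 12.27, 11.96 and 12.06 in CP, and 12.68, 12.59 and 12.57 in CD. The CD arrays lay above the other 9, which overlapped. It rose 1.43-fold in spinal cord (log2 0.51 ± 0.09, limma adjusted p = 0.00044) and its second probe set rose too (0.66, adjusted p = 0.00382), while the brain value was -0.01 ± 0.09. Sdha, the flavin-carrying catalytic subunit, rose in spinal cord by 0.35 ± 0.07 (adjusted p = 0.00172), with 0.14 ± 0.07 in brain and a difference of 0.21 (95% interval -0.01 to 0.43).

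Sdhc, the other anchor, rose in brain instead, by 0.28 ± 0.09 (limma adjusted p = 0.0241), and its spinal cord value was 0.07 ± 0.09. Its levels were 12.52, 12.47 and 12.67 in BP and 12.95, 12.78 and 12.76 in BD, without overlap, but the call was lost without BP1, BP2 or BD1 (adjusted p = 0.0742 to 0.0992). Sdhb, the iron-sulfur subunit, was called in neither response (-0.15 and 0.02). It was lower in proliferative spinal cord than in proliferative brain by 0.30 (limma adjusted p = 0.0123), except without CP2 (0.05).

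Complex III gave 2 falls in brain among 8 subunits, a share near the 28.5% of all genes, and 5 rises in spinal cord (62.5%, against 20.9%). Its brain median of -0.13 was -0.20 without BP2 and -0.08 without BP3. Cyc1, cytochrome c1, which hands electrons to cytochrome c, was at 12.70, 12.64 and 12.60 in BP, 12.11, 12.06 and 12.11 in BD, 12.22, 11.85 and 11.83 in CP, and 12.44, 12.11 and 12.32 in CD. BP lay above all other arrays, and in spinal cord CP1 lay among the CD arrays. It fell 1.46-fold in brain (log2 -0.55 ± 0.11, limma adjusted p = 0.000988) and rose 1.25-fold in spinal cord (adjusted p = 0.0307), a rise lost without CP2, CP3, CD1 or CD3 (0.0803 to 0.132). The difference was 0.87 ± 0.15 (adjusted p = 0.000535). Uqcrfs1, the Rieske iron-sulfur protein, rose in spinal cord by 0.45 ± 0.10 (limma adjusted p = 0.00352), from 12.75, 12.32 and 12.60 in CP to 13.09, 13.02 and 12.90 in CD, with -0.08 ± 0.10 in brain.

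The core proteins of complex III, which have no electron carrier of their own, did not move together. Uqcrc1 fell in brain by 0.43 on the log2 scale (limma adjusted p = 0.00266) and its spinal cord value was 0.09 ± 0.10 (adjusted p = 0.481, and 0.0263 without CP1). Uqcrc2 had 0.01 ± 0.09 in brain and rose in spinal cord by 0.26 (adjusted p = 0.0276), a call lost without CP2, CD1 or CD2 (0.0709 to 0.127). A second Uqcrc2 probe set fell in spinal cord by 0.77 (adjusted p = 0.0392), so its direction there depends on the probe set. Among the small subunits, Uqcrh, Uqcr10 and Uqcr11 were higher in differentiated spinal cord than in differentiated brain by 0.53, 0.48 and 0.46 (limma adjusted p = 0.000884, 0.00174 and 0.00544). Uqcrh, which supports the contact between cytochrome c1 and cytochrome c, was at 12.76, 12.78 and 12.69 in BD and 13.43, 13.13 and 13.25 in CD. Its rise in spinal cord, 0.34, was lost without CP1, CP2 or CD1 (0.0509 to 0.0874).

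Complex IV had a median of -0.05 in brain and 0.19 in spinal cord. The brain median was -0.10 without BP2 or BD1 and -0.02 without BD2 or BD3, the spinal cord median was 0.12 without CD1, and that of the difference of responses, 0.19, was 0.10 without CP1. Of 14 tested genes 1 rose and 1 fell in brain (7.14% each, against 24.1% and 28.5% of all genes). In spinal cord 5 rose and 1 fell (35.7% and 7.14%, against 20.9% and 22.6%). A positive difference of responses was called for 3 (21.4%, against 23.7%). Cox4i1, the ubiquitous form of subunit 4, was at 13.29, 13.28 and 13.44 in BP, 13.36, 13.18 and 13.22 in BD, 12.95, 13.02 and 13.08 in CP, and 13.48, 13.34 and 13.31 in CD. The CP arrays lay below the other 9. It rose in spinal cord by 0.36 ± 0.08 (limma adjusted p = 0.00275), had -0.08 ± 0.08 in brain, and was lower in proliferative spinal cord than in proliferative brain by 0.32 (adjusted p = 0.00648). Cox6c also rose in spinal cord (0.36, adjusted p = 0.00488), as did Cox7b (0.30, lost without CD1 at 0.0576) and Cox5b (0.29, lost without any array other than BP3, BD1, CP1 or CD3 at 0.0541 to 0.181). Cox5a, a subunit on the matrix side, fell in spinal cord by 0.40 (adjusted p = 0.0126), from 10.02, 9.99 and 10.05 in CP to 9.56, 9.67 and 9.63 in CD. Cox7c fell in brain by 0.30 (adjusted p = 0.0153, and 0.0754 without BD3).

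Cox8a, the ubiquitous form of the smallest subunit, rose in both tissues. It was at 13.22, 13.10 and 13.25 in BP, 13.62, 13.54 and 13.54 in BD, 13.35, 13.50 and 13.49 in CP, and 13.84, 13.75 and 13.64 in CD. The states did not overlap in either tissue. The rises were 0.38 ± 0.08 in brain (limma adjusted p = 0.0011) and 0.30 ± 0.08 in spinal cord (adjusted p = 0.00724), with a difference of -0.08 (95% interval -0.32 to 0.15). Cox8a was also higher in proliferative spinal cord than in proliferative brain by 0.26 (adjusted p = 0.0165), a call lost without BP2, CP2 or CP3 (0.059 to 0.0701).

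Several subunits of complex IV have a paralogue known from heart and muscle, lung or testis. Signals of different probe sets do not give relative amounts, so each is described on its own. Cox4i2, the lung form, ran from 3.42 to 6.68 over the 12 arrays and passed its array's 40th percentile on too few arrays to be tested, as did the muscle forms Cox6a2 (0.85 to 3.30) and Cox8b (0.62 to 2.46). Cox7b2 (0.71 to 5.71), known from testis, and Ndufa4l2 (2.09 to 6.31), the hypoxia-induced relative of Ndufa4, were not tested either. Cox6b2, the testis form, was tested and called in no comparison, with levels of 7.88 to 9.12, except that it passed in spinal cord without CP1 (0.0233). The muscle form Cox7a1 ran from 3.66 to 7.81 and was called in none, with its lowest value in BP3, except that it passed between proliferative cultures without BP1 (0.032). The ubiquitous Cox6a1, Cox6b1, Cox7a2l and Ndufa4 were called in no comparison, with log2 differences between -0.13 and 0.28, except that Cox7a2l passed in spinal cord and between differentiated cultures without BP2 (0.0374 and 0.0394). Muscle marker genes were dim in most cases: 9 to 11 of 13 lay under the 40th percentile on all arrays of a group. Of the 3 tested, 1 rose and 1 fell in spinal cord, with log2 changes from -1.18 to 4.79. In brain 0 were called. The summed log2 signal of the 13 was 12.02 to 12.26 in CD and 11.49 to 12.04 elsewhere.

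Complex V had the largest median rise in spinal cord, 0.39, with 12 of 16 genes (the inhibitor Atp5if1 included) higher and 0 lower in limma. At an unadjusted p under 0.05, 0 were lower there also. Among all genes 20.9% were higher and 22.6% lower in spinal cord. In brain 3 of the 16 fell, a smaller share than the 28.5% of all genes. None rose in brain: the count was 0 in limma and 0 at an unadjusted p under 0.05. The brain change of Atp5pf (0.16) passed without BP3 (0.042). Atp5po, which joins the peripheral stalk to the catalytic head, was at 12.69, 12.65 and 12.77 in BP, 12.72, 12.52 and 12.48 in BD, 12.49, 12.38 and 12.41 in CP, and 12.98, 13.06 and 12.91 in CD. The CD arrays lay above all others. It rose 1.47-fold in spinal cord (log2 0.55 ± 0.08, limma adjusted p = 0.000125), with -0.13 ± 0.08 in brain and a difference of 0.68 ± 0.12 (adjusted p = 0.000377). All 4 peripheral stalk subunits (Atp5pb, Atp5pd, Atp5pf and Atp5po), which keep the head from turning, rose in spinal cord by 0.33 to 0.55 and had a positive difference of 0.35 to 0.68. The difference of Atp5pb was lost without any array other than BP1, BP2, BD1, CP1 or CD3 (0.05 to 0.0727), and that of Atp5pf without BD3 or CD1 (0.0524 to 0.06).

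Of the 5 subunits of the F1 head and its central stalk, 4 rose in spinal cord. Atp5f1b, the catalytic beta subunit, rose by 0.45 ± 0.09 (limma adjusted p = 0.00122), from 13.18, 13.22 and 13.15 in CP to 13.78, 13.64 and 13.48 in CD, with -0.10 ± 0.09 in brain. Atp5f1d, the delta subunit of the central stalk, was at 12.63, 12.47 and 12.75 in BP, 12.43, 12.28 and 12.25 in BD, 12.16, 12.12 and 12.13 in CP, and 12.72, 12.60 and 12.51 in CD. The states lay apart in both tissues, with opposite order. Its rise in spinal cord was 0.47 ± 0.09 (limma adjusted p = 0.000805), its fall in brain 0.30 (adjusted p = 0.0146) and the difference 0.77 ± 0.13 (adjusted p = 0.000284). The brain fall was lost without BP3, BD2 or BD3 (0.0513 to 0.0624).

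In the membrane part of complex V, 4 of 6 subunits rose in spinal cord. Atp5mc3, 1 of the genes for the subunit c that forms the rotating ring, rose 1.44-fold (log2 0.52 ± 0.08, limma adjusted p = 0.000171), from 13.30, 13.21 and 13.21 in CP to 13.87, 13.80 and 13.62 in CD, with -0.02 ± 0.08 in brain. Atp5me, subunit e of the dimer contact, had the largest rise, 1.70-fold (log2 0.77 ± 0.20, adjusted p = 0.00681), from 11, 11.55 and 11.22 in CP to 12.12, 12 and 11.96 in CD. Its brain arrays were spread, with BD1 at 12.01 and BD2 and BD3 at 11.24 and 11.22, and the difference of 0.66 was not called (adjusted p = 0.0735), except without BP1, BD1 or CP2 (0.00491 to 0.0487). Atp5mg fell in brain by 0.27 (adjusted p = 0.018, lost without BP3, BD2 or BD3 at 0.052 to 0.0921) and rose in spinal cord by 0.32. Atp5mk, a small subunit of the dimer, fell in brain by 0.47 ± 0.09 (adjusted p = 0.000535), from 13.60, 13.52 and 13.74 to 13.28, 13.14 and 13.04. In spinal cord its value was 0.00 ± 0.09 on the deposited scale and -0.17 (adjusted p = 0.0449) after quantile normalization. The inhibitor Atp5if1 was called in neither response, with -0.22 and -0.03, while its second probe set rose in brain by 0.61 (adjusted p = 0.0363).

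Between tissues, complexes I, II, III and V were lower in proliferative spinal cord than in proliferative brain by a median of 0.29, 0.15, 0.21 and 0.24 on the log2 scale, with 20 of 34, 2 of 4, 4 of 8 and 8 of 16 genes lower. For complex IV the median was 0.05 on the deposited scale and -0.15 with array medians set equal. On the deposited scale 1 gene was lower (Cox4i1) and 1 higher (Cox8a), 7.14% each, against 22.8% and 21.2% of all genes. The other gene higher in proliferative spinal cord was Ndufb3, of the membrane arm of complex I, by 0.29 (limma adjusted p = 0.028), a call lost without BP1, BP2, CP1, CP2 or CP3 (0.0512 to 0.108). In differentiated cultures, 11 of 16 complex V genes were higher in spinal cord (68.8%, against 22.3% of all genes), with a median of 0.27. Of complex I 10 of 34 were higher (29.4%, nearer the share of all genes), with a median of 0.12. Ndufb10, of the membrane arm, had the largest such difference in complex I, 0.46 ± 0.10 (limma adjusted p = 0.00205). It was at 11.62, 11.45 and 11.47 in BD and 12.1, 12 and 11.81 in CD, without overlap. Those lower in differentiated spinal cord were Ndufc2 (-0.33, lost without BD1 or CD3 at 0.0573 to 0.0695), Sdhc (-0.25, lost without any array other than BP3, CP1 or CD1 at 0.0505 to 0.183) and Ndufaf7 (-0.32, lost without BP1, BD1, BD2, CD2 or CD3 at 0.0524 to 0.116).

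Other genes of the pathway were taken from lists of assembly factors, electron carriers with related genes, the citric acid cycle, regulators and mitochondrial import. Of 40 assembly factors of all complexes (the 6 above included), 14 fell and 4 rose in brain, and 9 fell and 7 rose in spinal cord, with medians of -0.15 and 0.04. In brain the shares were 35.0% lower and 10.0% higher, against 28.5% and 24.1% of all genes. In spinal cord they were 22.5% lower and 17.5% higher, against 22.6% and 20.9%. Uqcc2, a factor for complex III, fell by 1.02 in brain and 0.54 in spinal cord (limma adjusted p = 1.48e-06 and 0.000422), and Cox17, the copper chaperone of complex IV, fell by 0.80 and 0.99 (6.77e-05 and 1.39e-05). The electron carrier list of 17 genes also held genes of ubiquinone synthesis, carriers of phosphate and nucleotides, and other mitochondrial enzymes. Of the 17, 3 rose and 1 fell in brain, and 9 rose (52.9%, against 20.9% of all genes) and 1 fell in spinal cord. Slc25a5, an ADP/ATP carrier that supplies complex V, rose in spinal cord by 0.48 (adjusted p = 0.00363), with 0.03 in brain. Of 15 genes of pyruvate dehydrogenase and the citric acid cycle, 5 rose (33.3%, against 24.1% of all genes) and 3 fell in brain, and 10 rose (66.7%, against 20.9%) and 0 fell in spinal cord by limma, with 0 lower at an unadjusted p under 0.05. Idh2, the mitochondrial isocitrate dehydrogenase, rose by 0.96 in spinal cord (adjusted p = 5.76e-05) with -0.26 in brain (adjusted p = 0.0245 without CP1), and Suclg2, of succinyl-CoA synthetase, rose by 1.12 and 0.40 (1.43e-06 and 0.00504).

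A list of 19 genes held import proteins, which bring nuclear-encoded subunits into mitochondria, the outer membrane channels Vdac1, Vdac2 and Vdac3, and the inner membrane organisers Immt, Chchd3 and Phb2. In brain 14 of the 19 fell (73.7%, against 28.5% of all genes) and 0 rose by limma, with a median of -0.56, and in spinal cord 5 rose (26.3%, against 20.9%) and 0 fell, with a median of 0.06. At an unadjusted p under 0.05, 0 were higher in brain and 1 was lower in spinal cord. Tomm40, the import channel, and Timm50, the receptor of the inner membrane, fell in brain by 1.07 and 1.73 (limma adjusted p = 9.37e-05 and 4.12e-06), and their spinal cord values were 0.24 and -0.36. Timm50 passed the test in spinal cord without CP2 (0.031) and Tomm40 without CP1 (0.00654). Phb2, a prohibitin scaffold of the inner membrane, fell by 0.87 in brain and rose by 0.37 in spinal cord (2.12e-05 and 0.0146), a rise lost without CP2 or CP3 (0.061 to 0.0678). Tomm20, an import receptor, fell by 0.41 in brain (0.00159) and rose by 0.25 in spinal cord (0.0328), a rise lost without CP2, CP3, CD1 or CD2 (0.0839 to 0.111). Of 15 regulators of mitochondrial biogenesis, 8 fell (53.3%, against 28.5% of all genes) and 1 rose in brain, and 4 fell (26.7%, against 22.6%) and 0 rose in spinal cord by limma, where 4 were higher at an unadjusted p under 0.05. Tfam, which packages mitochondrial DNA, fell by 0.57 and 0.58 in brain and spinal cord (0.000299 and 0.000315). Of the coactivators, Pprc1 fell by 1.46 in brain (2.52e-06) and 0.45 in spinal cord (0.0218, lost without CP1, CD1, CD2 or CD3 at 0.0512 to 0.0765). Ppargc1a (PGC-1alpha) was the regulator that rose in brain, by 1.04 (0.0105), with -0.42 in spinal cord, and Esrra, its nuclear receptor partner, fell by 0.77 in brain (0.00213), with 0.19 in spinal cord.

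**Figure D4:**
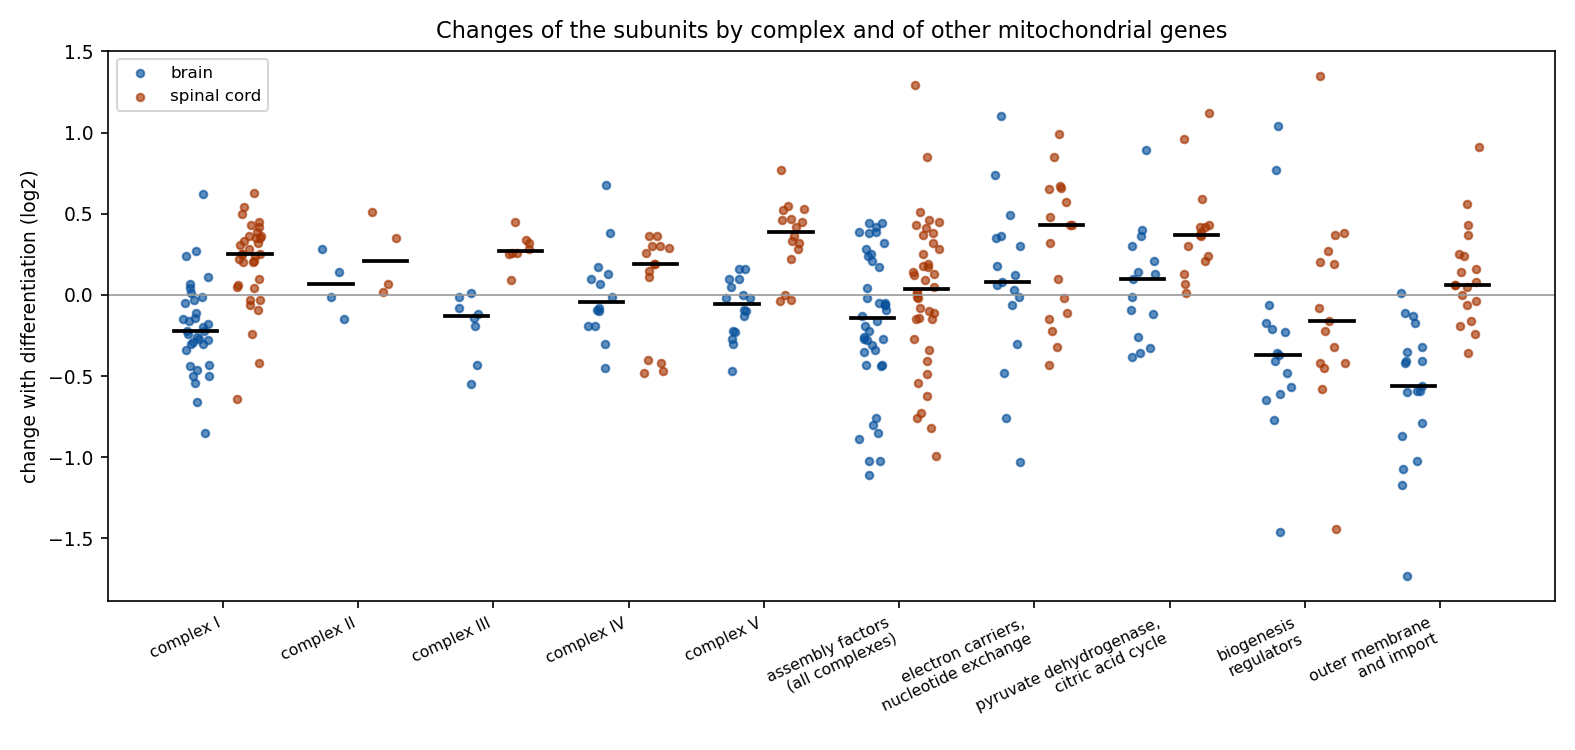
Log2 change with differentiation for each tested gene (points) of the complexes and of the other mitochondrial lists in brain (blue) and spinal cord (brown); black bars are medians, and sideways scatter has no meaning. Spinal cord medians lie above brain medians in every list, by the most for the outer membrane and import list (-0.56 and 0.06), and the assembly factor points include the 6 Ndufaf genes.

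Cell type markers, RNA quality signals and the scaling of the arrays also differed between the groups. Summed over 9 oligodendrocyte markers the log2 signal was 11.51 to 12.40 in BP and 15.20 to 15.62 in the other groups, and over 10 astrocyte markers it was 16.80 to 16.91 in BD against 14.45 to 15.83 elsewhere. Over 10 fibroblast and mural markers it was 10.10 to 11.26 in brain arrays, 14.59 to 15.42 in CP and 16.59 to 16.80 in CD. For 10 microglia markers it was 9.08 to 9.58 in BP, 10.64 to 10.80 in BD and 11.72 to 12.71 in spinal cord, and for 10 neuronal markers 11.28 to 11.61 in CD and 12.85 to 13.91 elsewhere. In BP, 4 of the 9 oligodendrocyte markers (Aspa, Mobp, Mog and Opalin) lay under the 40th percentile on all arrays, and in CD Rbfox3, a marker of mature neurons, did. So did the neuronal marker Nefl in BD. Of the 10 microglia markers 6 did in BP, and Cx3cr1 and Itgam did in every group, with C1qb also in CD. Of the 10 fibroblast and mural markers 3 did in BP and 4 in BD. Of the astrocyte markers Gjb6 did in BP, BD and CP, and Acsbg1 in CP. The cell cycle signal was 13.04, 12.76 and 13.39 in BP, 13.39, 13.53 and 13.48 in BD, 14.55, 13.66 and 13.79 in CP, and 13.55 in each CD array. It was thus no lower in brain arrays labelled differentiated than in proliferative ones: 3 of the 10 genes rose and 0 fell in brain by limma, with a median of 0.42, and 3 fell and 0 rose in spinal cord, with a median of -0.47; at an unadjusted p under 0.05 both counts of 0 stayed at 0. The 3' minus 5' signal of Actb was 0.99 to 1.01 in CD and 0.69 to 0.99 elsewhere, and the 5S rRNA control was 9.5 to 11.02 in BP and 7.85 to 9.38 elsewhere. The part of these differences in the subunit changes was not tested.

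The scale of the arrays bears on every count above. Setting all array medians equal shifts the median of all genes by -0.15 in brain differentiation, 0.08 in spinal cord differentiation, -0.21 between proliferative and 0.02 between differentiated cultures, and 0.23 in the difference of responses. On that scale 36 of the 82 genes fell and 1 rose in brain, and 40 rose and 5 fell in spinal cord. A positive difference was called for 53 and a negative one for 0. Of all 11218 tested genes, 3902 fell and 2042 rose in brain, and 2474 rose and 2002 fell in spinal cord. A positive difference was called for 3544 of these and a negative one for 1752. The share of rises among all called genes went from 45.8% to 34.4% in brain, and of higher calls from 48.2% to 30.1% between proliferative cultures and from 52.7% to 66.9% for the difference of responses. With the 12 distributions made identical by quantile normalization, 26 fell and 9 rose in brain, and 27 rose and 8 fell in spinal cord. A positive difference was called for 35 of the 82 and a negative one for 3. Of all tested genes, 3321 fell and 2584 rose in brain, and 2391 rose and 2496 fell in spinal cord. A positive difference was called for 2773 of these and a negative one for 2295. The median over the 82 genes kept its sign in all 5 comparisons on each scale.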

How the data were processed

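RNA from 12 samples was measured on Affymetrix Rat230_2 arrays with biotin-labelled targets, per the labels. The authors deposited log2 signals in the series' value table; MAS5 and affy are named for them, per the submitters' processing notes. The 2% trimmed mean of the linear signal was 500 on every array. Of 31099 probe sets, 57 controls were left out, and 20834 of the other 31042 were tested.

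Groups followed the sample titles. limma 3.58.1 in R 4.3.3 fitted 1 mean for each of the 4 groups over all arrays (lmFit and eBayes, trend on), with 5 contrasts and Benjamini-Hochberg adjustment over the tested probe sets at 0.05. The fit was tested on simulated data. Summaries used Python 3.11.15. Symbols came from the platform annotation, and 7 probe sets with several symbols, a subunit-like symbol among them, were not used. All 87 genes were found in RefSeq's gene table by Entrez ID. Depth does not apply to arrays, and their number limits the precision.

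The genes followed and the other gene lists were chosen with earlier results of these data known. The rule for named genes took, in each contrast and complex, the gene with the largest called change in each direction, the paralogues of complex IV and of subunit c, the genes of complex II, and the 5 genes with the largest called difference of responses. The other genes named, the promoters and the 12 genes plotted were chosen after their values were seen. Alternatives were other scalings, filters, a pseudocount of 64, no trend, only the groups compared, the replicate number as a block, other probe set rules and leaving out each array.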

Additional observations from a re-analysis of the deposited data

Results flagged for a closer look

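The differences listed here are those between the spinal cord and the brain response to differentiation (spinal cord minus brain, log2) that passed limma's interaction test at a Benjamini-Hochberg adjusted p under 0.05, among the genes named in the text. In complex I they were 1.06 for Ndufa5, 0.89 for Ndufb9, 0.85 for Ndufs7, 0.80 for Ndufb7, 0.69 for Ndufc1, 0.63 for Ndufa11, 0.63 for Ndufab1, 0.61 for Ndufb10, 0.60 for Ndufa6, 0.59 for Ndufs3, 0.58 for Ndufv1, 0.53 for Ndufs8, 0.52 for Ndufv2, 0.49 for Ndufb5, 0.36 for Ndufs1 and -0.28 for Ndufb2. Among its assembly factors they were 1.0 for Ndufaf4, 0.62 for Ndufaf8 and 0.53 for Ndufaf5. Complex II had 0.53 for Sdhd. Complex III had 0.87 for Cyc1, 0.53 for Uqcrc1, 0.53 for Uqcrfs1, 0.47 for Uqcrh and 0.47 for Uqcr11. Complex IV had 0.50 for Cox7c, 0.48 for Cox5b and 0.44 for Cox4i1.

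Complex V had 0.77 for Atp5f1d, 0.68 for Atp5po, 0.59 for Atp5mg, 0.55 for Atp5f1b, 0.54 for Atp5mc3, 0.54 for Atp5pd, 0.47 for Atp5mk, 0.37 for Atp5pf and 0.35 for Atp5pb. Of these, the calls of Uqcr11 (lost without BP3, BD3, CP1 or CD1 at 0.0533 to 0.0797) and Cox5b (lost without BD2, BD3, CP3 or CD1 at 0.0533 to 0.0569) rest on single arrays, beside those given with the results. Among other mitochondrial genes the differences were 1.37 for Timm50, 1.31 for Tomm40, 1.25 for Phb2, 1.22 for Idh2, 1.01 for Pprc1, 0.95 for Esrra, 0.72 for Suclg2, 0.66 for Tomm20, 0.48 for Uqcc2 and 0.46 for Slc25a5. The last was lost without any array other than BP3, BD1, CP1 or CD3 (0.0569 to 0.0883). Ppargc1a had -1.46. All 11 member genes called in opposite directions in both tissues are among these.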

How the results depend on the processing

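The median over the 82 genes kept its sign in all 5 comparisons under each alternative tried, but counts and sizes moved with the scaling of the arrays. With array medians set equal, brain differentiation gave 1 higher, a median of -0.29, and -0.37, -0.09 (reversed from 0.07), -0.28, -0.20 and -0.21 for complexes I to V and -0.98 for the assembly factors. Spinal cord differentiation gave 0.34, and 0.33, 0.29, 0.35 and 0.27 for complexes I to IV and -0.22 for the assembly factors. Between proliferative cultures it gave 0 higher, -0.44, and -0.50, -0.36, -0.42, -0.15 and -0.45 for complexes I to V and -0.64 for the assembly factors; between differentiated cultures 17 higher and 0 lower. The difference of responses became 0.60, and 0.66, 0.42, 0.71, 0.42 and 0.68 for complexes I to V and 0.60 for the assembly factors.

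After quantile normalization, brain gave 9 higher, and spinal cord 27 higher with a median of 0.18 and 0.14, 0.19, 0.07 and 0.26 for complexes II to V. Atp5mk reversed there, to -0.17. Between proliferative cultures it gave 4 higher, -0.14, and -0.20, -0.07, -0.14, 0.13 and -0.11 for complexes I to V, and between differentiated cultures 0.08 and 0.17 for complexes IV and V. The difference of responses gave 3 lower, 0.22, and 0.34, 0.10, 0.34, 0.03 and 0.22 for complexes I to V and 0.47 for the assembly factors. Centring on the 75th percentile gave 0 higher between proliferative cultures and a median difference of responses of 0.43. Without a filter, complex IV was at 0.11 in spinal cord and -0.03 for the difference of responses (its untested isoforms enter), and 1 gene was lower between differentiated cultures. Without a trend, or with only the groups compared, 0 were higher between proliferative cultures. With the mean over a gene's probe sets, Ndufa7 reversed to 0.12 in spinal cord and 0.26 between differentiated cultures, Uqcrc2 to -0.25 in spinal cord and 0.11 between proliferative cultures, where complex III was at -0.07. Without assembly factors and the pseudogene, an alternative added after seeing the data, 4 fell in spinal cord. The causes were not tested where the setting itself does not show them.

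Leaving out 1 array gave, in brain, 2 to 5 higher, -0.20 to -0.08 for complex III and -0.91 to -0.74 for the assembly factors, and in spinal cord 4 to 7 lower and 0.25 to 0.35 for complex III. Between proliferative cultures it gave 0 to 3 higher, 25 to 39 lower and -0.49 to -0.36 for the assembly factors. Between differentiated cultures it gave 14 to 31 higher, 0 to 4 lower, 0.07 to 0.19 for complex I and -0.05 to 0.07 for the assembly factors. The difference of responses gave 0.39 to 0.53 for complex III, 0.10 to 0.22 for complex IV and 0.32 to 0.46 for the assembly factors. Deviations of same-numbered arrays from their group means correlated at -0.1187 to 0.0479 over the tested probe sets. Those of differently numbered arrays correlated at -0.1067 to 0.149. These values cannot tell whether arrays of the same number share an animal, culture or batch. With the replicate number as a block, 1 gene was lower between differentiated cultures. The other counts of members stayed within 1.5 times, apart from a difference of responses lower in 0 instead of 1. With 3 arrays a group and differences of 0.2 to 0.3 on the log2 scale, many calls lie near the threshold.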
